A study of Homo sapiens with 8 samples.

Results

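Small nucleolar RNA (snoRNA) host genes and abundant long noncoding RNAs (lncRNAs) were examined in A375 human melanoma cells with and without serum. Host genes were taken by symbol, as SNHG followed by digits only, together with *GAS5*, *ZFAS1*, *EPB41L4A-AS1* and *DANCR*. The other lncRNAs were *CYTOR*, *NEAT1*, *MALAT1*, *MIR17HG*, *PVT1*, *OIP5-AS1*, *NORAD* and *TUG1*. This gave 40 genes, 32 hosts and 8 other lncRNAs, of the 58051 genes in the deposited counts. A375 is an established melanoma cell line, and 4 wild-type A375 lines (WT1 to WT4) were each cultured in DMEM for 12 h, either with 10% fetal bovine serum (serum) or with no serum (serum-free). Each line gave 1 library per condition, so there were 4 libraries per group, made from total RNA after ribosomal RNA depletion. The study's methods describe single-cell colonies for its knockout lines, and whether the wild-type lines are also clones is not given in the sources used here. The counts of both WT4 libraries were deposited under another name, so the identity of that line rests on the labels.

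snoRNAs guide the chemical modification of ribosomal and other small RNAs, and in human cells most are cut out of the introns of a host transcript. The spliced host RNA that remains often has little coding capacity, and for several hosts, *GAS5* among them, it is removed by nonsense-mediated decay, a pathway that needs translation. Many hosts share with ribosomal protein genes a start made of a C and a run of pyrimidines, the terminal oligopyrimidine motif, which ties translation of the RNA to growth signals such as those in serum. The other lncRNAs act elsewhere: *MALAT1* lies in nuclear speckles, *NEAT1* is the scaffold of paraspeckles, and *NORAD* binds Pumilio proteins in the cytoplasm.

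Counts on genes ran from 29759279 to 67101005 with serum and from 37847737 to 73341551 without serum. Reads aligned to several places, which were not counted, made up 22.7% in WT1 and 16.8% in WT2 with serum and between 5.73% and 10.1% in the other 6 libraries. Of the melanocyte and melanoma markers, *MITF* was at 40.1 ± 3.89 CPM (counts scaled to a common library size) with serum and *S100B* at 18.9 ± 4.82 (SD, n = 4), while *PMEL* and *MLANA* were under 1 CPM on average with serum, *TYR* had at most 4 counts in a library and *SOX10* was at 0 in all 8. Summed markers ranged over 54.6 to 67.7 CPM with serum and 50.6 to 69.2 without serum for melanocytes, 14.8 to 21.7 and 11.7 to 20.8 for keratinocytes (mostly *KRT14*; *KRT1* was at 0), 5.46 to 9.43 and 5.86 to 8.55 for fibroblasts, and at most 0.21 for immune cells. *CDH5*, the one endothelial marker counted, was at 1.32 CPM or less.

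Levels of different genes were compared per length, as RPKM (counts divided by merged exon length and library size). *MALAT1* was the highest, at 392 ± 27.0 RPKM with serum and 319 ± 29.5 without (SD, n = 4), ranking 67 and 78 among 17425 genes with a known length. *NORAD* followed at 129 ± 9.52 and 163 ± 18.1 RPKM, then the host genes *SNHG16* (83.7 ± 5.14 and 68.8 ± 3.19), *GAS5* (61.4 ± 3.74 and 53.3 ± 3.86) and *SNHG19* (37.6 ± 9.14 and 43.8 ± 4.95). In serum, *SNHG19* and *SNHG1* (35.7 ± 3.56) did not differ beyond their spread, nor did *SNHG3* (29.3 ± 0.86) and *SNHG29* (29.1 ± 2.38). *NEAT1* was at 23.6 ± 3.56 RPKM in serum and *SNHG32* at 22.1 ± 0.65, again within the spread. With the merged length, *PVT1* was lowest of the 34 genes tested, at 0.27 RPKM in serum, below the median of 2.74 RPKM over all ranked genes. The order depends on the gene length used: with the longest transcript in place of merged exons, *SNHG16* in serum was at 134 RPKM, beside 129 for *NORAD*, and *SNHG17* moved from 10.7 to 48.1. Some lengths of both kinds exceed the gene's RefSeq span, so the RPKM and place of those genes are uncertain. *SNHG5* had 12604 merged bases and a longest transcript of 5764, beside a span of 85677007 to 85678733 on chromosome 6. *SNHG8* had 6614 and 6166, beside 118278762 to 118279823 on chromosome 4.

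**Figure D1:**
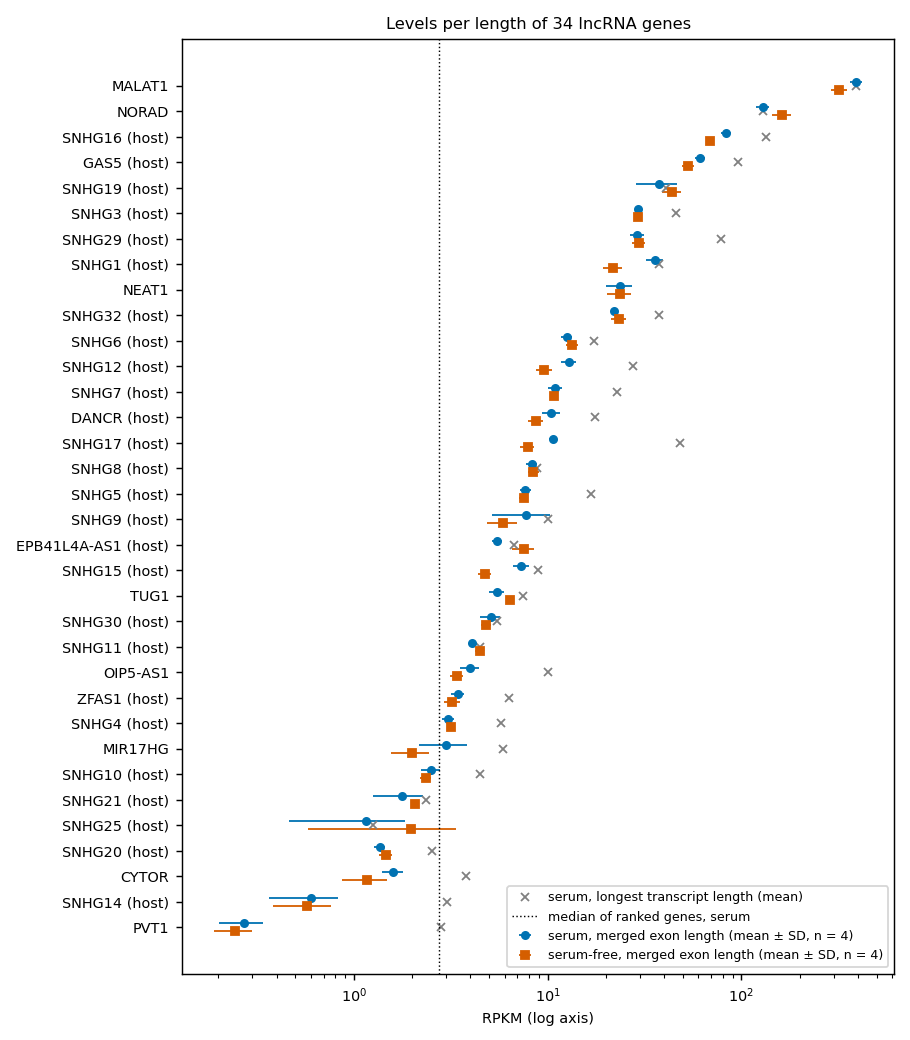
Level of each of the 34 tested genes in RPKM on a log axis, as mean ± SD of 4 libraries with serum (circles) and without (squares), with crosses for the serum mean under the longest transcript length and a dotted line at the median of ranked genes. *MALAT1* and *NORAD* lie above all host genes with the merged length, and *PVT1*, *SNHG14* and *SNHG17* shift furthest on the log axis when the length is changed.

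6 host genes were left out of the test for low counts. *SNHG18* had 0 counts in all 8 libraries, and *SNHG22*, *SNHG26*, *SNHG27*, *SNHG28* and *SNHG31* had at most 12 counts in any library. The other 26 hosts and all 8 other lncRNAs were tested, serum-free against serum, with edgeR over 17671 genes.

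Without serum, a subset of snoRNA hosts fell while most did not pass the threshold used. 5 of the 26 tested hosts fell at an adjusted p under 0.05 (*SNHG1*, *SNHG15*, *SNHG17*, *SNHG12* and *SNHG16*) and 1 rose (*EPB41L4A-AS1*). Over all tested genes, 14.0% fell and 11.1% rose, or 25.1% in either direction, so the 6 of 26 hosts (23.1%) are near the background. Upper-quartile scaling turned the balance over all genes from 1957 higher and 2477 lower to 2508 and 1843, and left the hosts at 1 higher and 5 lower. Without the serum libraries of WT1 and WT2, those with the most reads aligned to several places, 5.88% of all genes were called, and among the members *SNHG1* (edgeR's adjusted p = 0.0305) and *SNHG15* (0.0406) were, while the other 6 members called with all libraries were not (0.0566 to 0.124). Their log2 fold changes were then -0.40 for *SNHG17*, -0.43 for *SNHG12*, -0.27 for *SNHG16*, 0.39 for *EPB41L4A-AS1*, -0.28 for *MALAT1* and 0.40 for *NORAD*, beside -0.44, -0.41, -0.28, 0.45, -0.30 and 0.33 with all libraries. This fit had no block and set the serum libraries of WT3 and WT4 against the serum-free libraries of all 4 lines. Effects of reads aligned to several places, of differences between lines and of fewer libraries cannot be told apart in it. The part of such reads in the values was not tested. The median log2 fold change of the hosts was -0.02, against 0.03 over all tested genes. CPM ranges of the 4 serum and 4 serum-free libraries did not overlap for 7 hosts, 5 lower and 2 higher, and this was so for 27.5% of all tested genes. These ranges depend on the scaling: TMM factors were 0.9495 to 0.9801 with serum and 1.029 to 1.055 without. As unscaled shares of all counts, the ranges of *SNHG16* and *SNHG12* overlapped. Those of *SNHG3*, *SNHG32*, *SNHG6* and *SNHG4* came apart, all higher without serum, so 9 hosts were apart. Of these, *SNHG1*, *SNHG15* and *SNHG17* were lower and the others higher. In bulk libraries, fewer cells with a transcript and less of it per cell cannot be told apart.

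**Figure D2:**
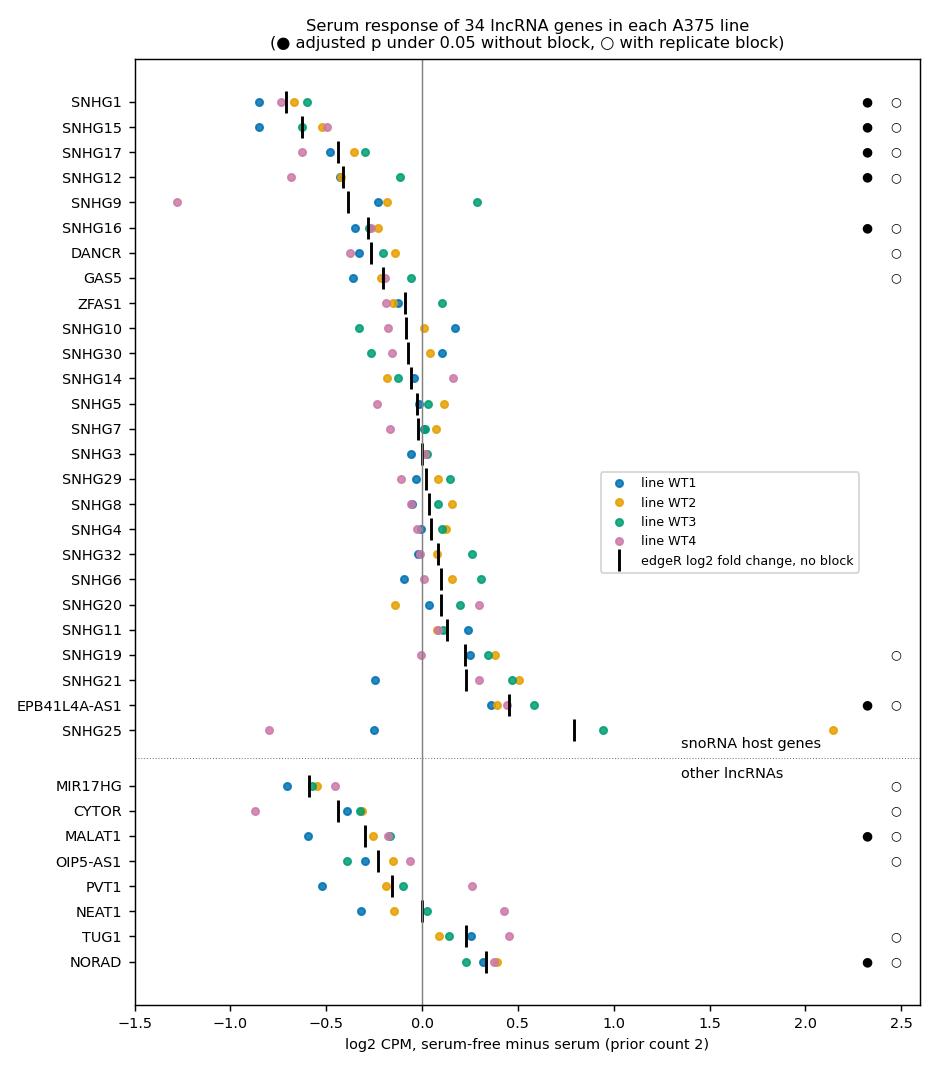
Difference in log2 CPM between the serum-free and the serum library of each line (coloured points) for the 34 tested genes, with the edgeR log2 fold change as a bar, a filled circle where the adjusted p was under 0.05 without a block and an open circle where it was so under the replicate block. All 4 points lie left of 0 for *SNHG1*, *SNHG15*, *SNHG17*, *SNHG12*, *SNHG16*, *DANCR* and *GAS5* among hosts, and right of it for *EPB41L4A-AS1* and *SNHG11*.

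*SNHG1*, a host of several box C/D snoRNAs with 9 snoRNA genes in its span (chromosome 11, 62851978 to 62855885 in GRCh38), fell in all 4 lines. In serum it was at 157, 141, 147 and 123 CPM in WT1 to WT4, and without serum at 86.8, 88.6, 97.3 and 73.8. The highest serum-free library was below the lowest serum library, and the falls lay between 0.60 and 0.85 on the log2 scale. On the log2 scale the change was -0.71 ± 0.10 (SE), or 0.61 times the serum level (edgeR's adjusted p = 0.00195).

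*SNHG15*, host of SNORA9 (chromosome 7, 44983023 to 44986696), was at 31.1, 28.8, 30.6 and 25.0 CPM in WT1 to WT4 with serum and at 17.2, 20.05, 19.8 and 17.7 without. The groups did not overlap, and WT1 showed the largest fall, by 0.85 on the log2 scale. It fell to 0.65 times its serum level (-0.63 ± 0.10 on the log2 scale, edgeR's adjusted p = 0.00241). *SNHG1* and *SNHG15* were the 2 members called in all 26 alternative fits.

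*SNHG17*, host of the SNORA71 family (chromosome 20, 38420588 to 38435328), was at 130, 132, 118 and 129 CPM in WT1 to WT4 with serum and at 93.4, 103, 95.7 and 83.9 without. Every serum library was above every serum-free one, with WT3 lowest among the serum libraries. The fall was to 0.74 times the serum level (-0.44 ± 0.08 on the log2 scale, edgeR's adjusted p = 0.00402). *SNHG12*, which carries 4 snoRNA genes (chromosome 1, 28578538 to 28582983), was at 57.3, 51.8, 49.8 and 60.5 CPM with serum and 42.5, 38.6, 45.9 and 37.6 without, which is -0.41 ± 0.09 on the log2 scale (edgeR's adjusted p = 0.00997). Its fall was smallest in WT3, by 0.12 on the log2 scale, and largest in WT4, by 0.69. The call for *SNHG12* was lost when WT1 or WT2 was left out (adjusted p up to 0.0665 in edgeR).

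*SNHG16*, host of the SNORD1 snoRNAs and the host with the highest count (chromosome 17, 76557764 to 76565348), was at 509, 467, 507 and 449 CPM in WT1 to WT4 with serum and at 400, 399, 418 and 373 without. The ranges were apart although the change was small, at -0.28 ± 0.07 on the log2 scale (edgeR's adjusted p = 0.0130). The fall lay between 0.23 and 0.35 in the 4 lines. Without WT1, WT2 or WT3 the call was lost (adjusted p up to 0.0947 in edgeR).

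*EPB41L4A-AS1*, host of SNORA13 (chromosome 5, 112160526 to 112162501), went the other way. It was at 22.2, 23.0, 25.6 and 23.7 CPM in WT1 to WT4 with serum and at 28.5, 30.2, 38.4 and 32.3 without. All serum-free libraries were above all serum libraries, and WT3 was highest in both groups. The rise was 0.45 ± 0.10 on the log2 scale, or 1.37-fold (edgeR's adjusted p = 0.0112), and the call was lost without line WT2 (0.0543) and in none of the other 11 fits with a single library or line removed. *EPB41L4A*, which overlaps it on the other strand, was at 2.18 CPM with serum and 2.30 without (0.08 on the log2 scale, adjusted p = 0.914 in edgeR).

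Of the 8 hosts with the highest counts, 5 had no call in edgeR's fit without a block. DESeq2, also without a block, called *GAS5* (adjusted p = 0.0363) and *DANCR* (0.0384) lower, and 30.2% of all genes. *GAS5*, named for its rise in growth-arrested cells (chromosome 1, 173863901 to 173869045), was at 329, 290, 303 and 290 CPM in WT1 to WT4 with serum and at 256, 250, 291 and 254 without. The groups overlapped through WT3, which hardly moved (a log2 difference of -0.06), while WT1 had the largest difference (-0.36). Its change was -0.20 ± 0.07 on the log2 scale (edgeR's adjusted p = 0.0639). *DANCR*, host of SNORA26 and known for holding progenitor cells undifferentiated, was at 103, 92.2, 115 and 115 CPM with serum and at 82.0, 83.5, 99.7 and 88.6 without. It was lower without serum in each line although the ranges overlapped (-0.27 ± 0.09 on the log2 scale, edgeR's adjusted p = 0.0622).

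*SNHG29*, host of SNORD49 and SNORD65 snoRNAs, was at 257, 233, 265 and 285 CPM with serum and at 251, 247, 293 and 264 without, with 2 lines higher and 2 lower. *SNHG3*, host of SNORA73A and SNORA73B, was the steadiest in TMM-scaled CPM, at 123, 120, 122 and 115 CPM with serum and 118, 122, 125 and 116 without, a log2 fold change of 0.00 ± 0.06. As an unscaled share of all counts, *SNHG3* was higher in every serum-free library, at 0.01098% to 0.01174% with serum and 0.01227% to 0.01283% without. *SNHG5*, host of the SNORD50 snoRNAs, was at 94.3, 89.8, 98.4 and 105 CPM with serum and 93.2, 97.1, 100 and 88.9 without (-0.03 ± 0.07 on the log2 scale). The differences in CPM of these 3 hosts were smaller than the spread between lines.

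**Figure D3:**
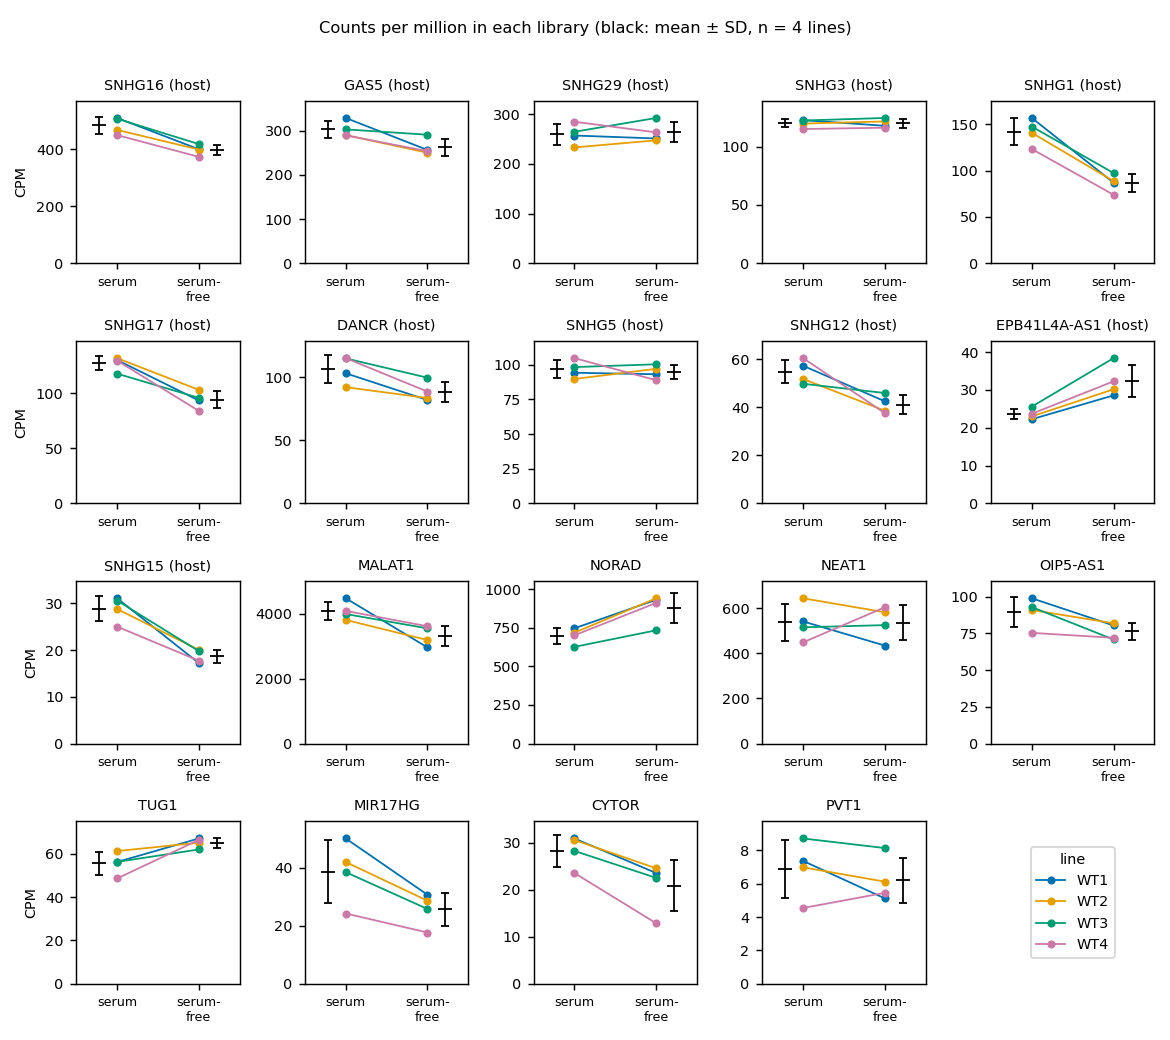
CPM of 11 host genes and 8 other lncRNAs in each library, with a line joining the serum and the serum-free library of each A375 line and the mean ± SD of 4 libraries in black (axes start at 0). *SNHG1*, *SNHG15* and *SNHG17* fell in all 4 lines, *EPB41L4A-AS1* rose, *SNHG3* stayed level in TMM-scaled CPM, and *NEAT1* moved in opposite directions in WT1 and WT4.

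None of the other 15 tested hosts was called by edgeR without a block, DESeq2 or limma-voom, and 0 had an unadjusted p under 0.05 in edgeR. Their log2 fold changes were -0.39 for *SNHG9*, -0.09 for *ZFAS1*, -0.08 for *SNHG10*, -0.07 for *SNHG30*, -0.06 for *SNHG14*, -0.02 for *SNHG7*, 0.03 for *SNHG8*, 0.05 for *SNHG4*, 0.08 for *SNHG32*, 0.10 for *SNHG6* and *SNHG20*, 0.13 for *SNHG11*, 0.22 for *SNHG19*, 0.23 for *SNHG21* and 0.79 for *SNHG25*. The last rests on at most 98 counts in a library and has an SE of 0.62. The value of *SNHG9* rests on WT4, with log2 differences of -0.23, -0.18, 0.29 and -1.28 in WT1 to WT4, and was -0.04 without that line. *SNHG11* (chromosome 20, 38446654 to 38450921) was higher without serum in all 4 lines with ranges that did not overlap, at 18.5 ± 0.57 and 20.2 ± 0.99 CPM, but did not pass (edgeR's adjusted p = 0.242).

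The libraries of a line resembled each other, so the comparison was also made within lines, by adding a replicate block for the line. Calls over all genes then rose to 45.7% (22.4% lower and 23.2% higher). 9 of the 26 hosts (34.6%) were called, 7 lower and 2 higher, and these included the 6 hosts called without the block. The additions were *DANCR* (edgeR's adjusted p = 0.00180) and *GAS5* (0.00900), both lower, and *SNHG19* (0.0204), higher by 0.24 on the log2 scale. *SNHG19* was higher without serum in WT1, WT2 and WT3, by 0.25 to 0.38, and at -0.01 in WT4. The blocked call for *GAS5* did not hold without WT1 (edgeR's adjusted p = 0.104), and that for *SNHG19* did not hold without WT1, WT2 or WT3 (up to 0.140).

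Across genes, the change without serum rose with GC content (Spearman's rho of 0.36, across genes, which are not independent replicates), and an offset for this was added to the blocked fit. With it 46.1% of all genes and 12 of the 26 hosts were called. *SNHG1*, *SNHG15*, *SNHG17*, *SNHG12*, *SNHG16*, *DANCR* and *EPB41L4A-AS1* were called in the same direction. *GAS5*, at 39.2% GC, was no longer called (-0.05 on the log2 scale, edgeR's adjusted p = 0.445), nor was *SNHG19* (0.13, 0.123). *SNHG7* (65.9% GC) and *SNHG9* (66.5% GC) were called lower with the offset, at -0.33 and -0.67, and *SNHG6*, *SNHG8* and *SNHG14*, at 37.5% to 40.4% GC, were called higher, at 0.22, 0.19 and 0.13. WT4 carried the fall of *SNHG9*, which was at -0.05 in the blocked fit without that line and with no offset (edgeR's adjusted p = 0.825). The values of these 5 hosts were not called in either fit without the offset.

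**Figure D4:**
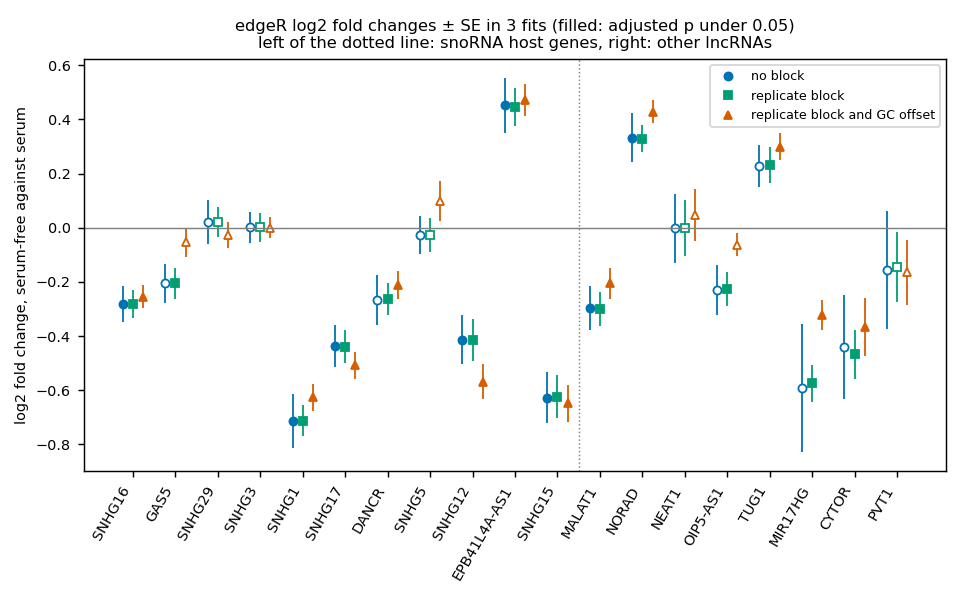
edgeR log2 fold changes ± SE of 11 host genes and 8 other lncRNAs without a block (circles), under the replicate block (squares) and with the block and a GC offset (triangles); filled symbols have an adjusted p under 0.05. *GAS5* and *OIP5-AS1* move towards 0 with the GC offset, and *SNHG1*, *SNHG15*, *SNHG17* and *SNHG12* stay below -0.40 in all 3 fits.

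Among the other lncRNAs, *MALAT1* fell and *NORAD* rose without serum, which is 2 of 8 (25.0%) beside the 25.1% of all tested genes. Their median log2 fold change was -0.19. *MALAT1*, a nuclear speckle RNA that alone held 0.31% to 0.43% of all counts (chromosome 11, 65497738 to 65506516), was at 4476, 3808, 3991 and 4087 CPM in WT1 to WT4 with serum and at 2962, 3190, 3548 and 3614 without. The ranges did not overlap in CPM but did as unscaled shares of all counts (0.373% to 0.426% and 0.309% to 0.381%). WT1, the line whose serum library had the most reads aligned to several places, had the largest fall, by 0.60 on the log2 scale against 0.17 to 0.26 in the others. *MALAT1* fell to 0.81 times the serum level (-0.30 ± 0.08 on the log2 scale, edgeR's adjusted p = 0.0237). The call was lost with upper-quartile scaling (-0.23, adjusted p = 0.0586 in edgeR), without either library of WT1 (up to 0.0703), without the serum library of WT3 (0.0534) or the serum-free library of WT2 (0.0645), and without any one of the lines WT1, WT2 and WT3 (up to 0.156). With the block it was called unless WT4 was left out (-0.34, edgeR's adjusted p = 0.132).

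*NORAD*, the Pumilio-binding RNA (chromosome 20, 36045618 to 36050960), was at 746, 718, 626 and 701 CPM in WT1 to WT4 with serum and at 931, 940, 733 and 910 without. The ranges overlapped in CPM because WT3 was low in both conditions, yet each line rose, by 0.23 to 0.39 on the log2 scale. As unscaled shares of all counts the ranges did not overlap (0.05942% to 0.07106% with serum and 0.07547% to 0.09805% without). The rise was 1.26-fold (0.33 ± 0.09 on the log2 scale, edgeR's adjusted p = 0.0253). The call was lost without the serum library of WT2 or WT3, the serum-free library of WT1, WT2 or WT4, or the line WT1, WT2 or WT4 (adjusted p up to 0.113 in edgeR). With the block it passed whichever line was removed (at most 0.00210).

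*MIR17HG*, the primary transcript of a microRNA cluster linked to proliferation (chromosome 13, 91347687 to 91354577), was at 50.2, 42.0, 38.5 and 24.3 CPM with serum and 30.7, 28.7, 25.8 and 17.7 without. WT4 was lowest in both conditions, so the ranges overlapped and edgeR without a block did not call it (-0.59 ± 0.24, adjusted p = 0.102), while DESeq2 did (-0.60, adjusted p = 0.0305). Within lines it fell by 0.46 to 0.71 on the log2 scale, and the block gave -0.58 ± 0.07 (edgeR's adjusted p = 9.66e-06). It moved to -0.32 with the GC offset and was still called (edgeR's adjusted p = 2.27e-04). Without the WT1 and WT2 serum libraries it was at -0.29 with no block (edgeR's adjusted p = 0.529). In that fit the lines are not matched between conditions, so differences between lines enter the value. *CYTOR*, named as a cytoskeleton regulator RNA, was at 31.0, 30.6, 28.3 and 23.6 CPM with serum and 23.6, 24.6, 22.6 and 12.9 without (edgeR's adjusted p = 0.121, and 6.89e-04 with the block). Its fall in WT4 was 0.87 on the log2 scale against 0.32 to 0.39 in the other lines.

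*TUG1*, a lncRNA first described in the retina, was at 56.2, 61.3, 56.3 and 48.6 CPM with serum and 67.1, 65.1, 62.0 and 66.5 without. All serum-free libraries were above all serum libraries, by 0.23 ± 0.08 on the log2 scale (edgeR's adjusted p = 0.0557, and 0.0111 with the block; DESeq2's 0.0415). Without a block it also passed in edgeR with upper-quartile scaling (adjusted p = 0.0239), TMM from protein-coding genes (0.0459) and the filter of 10 counts in every library (0.0439). *OIP5-AS1*, a cytoplasmic RNA that binds a microRNA, was at 98.8, 90.8, 92.8 and 75.3 CPM with serum and 80.3, 81.8, 70.8 and 71.9 without, lower in each line but overlapping (edgeR's adjusted p = 0.0969, and 0.00889 with the block). Its value moved to -0.06 with the GC offset (edgeR's adjusted p = 0.256). With the block, 6 of the 8 other lncRNAs were called, 4 lower and 2 higher, beside 45.7% of all genes, and with the block and GC offset 5 were, beside 46.1%. The blocked call was lost without WT1 or WT3 for *OIP5-AS1* (edgeR's adjusted p up to 0.0674) and without WT1 for *TUG1* (0.0557).

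*NEAT1*, the paraspeckle scaffold (chromosome 11, 65422798 to 65445540), was at 541, 643, 515 and 448 CPM in WT1 to WT4 with serum and 434, 581, 524 and 603 without. WT4 had the lowest serum library and the highest serum-free library, and the log2 differences were -0.32, -0.15, 0.03 and 0.43 in WT1 to WT4. The mean change was therefore 0.00 ± 0.13 on the log2 scale (edgeR's adjusted p = 0.992). With WT4 left out, *NEAT1* was called lower in the blocked fit, at -0.14 (edgeR's adjusted p = 0.0278). *PVT1*, a neighbour of *MYC*, was at 7.36, 6.98, 8.71 and 4.54 CPM with serum and 5.12, 6.12, 8.14 and 5.45 without, lower in 3 lines and higher in WT4, and was not called in any fit (edgeR's adjusted p = 0.641 without the block). With 1 library per line and condition, a difference in response between lines could not be tested.

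Hosts and other lncRNAs are described line by line, without a test. From WT1 to WT4 the median log2 difference of the 26 hosts was -0.05, 0.03, 0.06 and -0.16, and 19 of them were lower without serum in WT1 and in WT4. For the 8 other lncRNAs the medians were -0.35, -0.17, -0.13 and 0.10, with 6 lower in WT1 and 4 in WT4. Over all tested genes the medians lay between 0.02 and 0.04 in the 4 lines. The range between the 4 serum libraries was larger than the size of the log2 fold change for 18 of the 26 hosts and 5 of the 8 other lncRNAs. This range does not measure the spread of the change within lines: *DANCR* and *MIR17HG* are among these genes, yet fell in all 4 lines. *SNHG14*, a transcript of the imprinted region of chromosome 15 with 84 snoRNA genes in its span (24823608 to 25419462), differed between lines over a range of 1.33 on the log2 scale with serum and 1.27 without, beside a log2 fold change of -0.06. The ranges between lines in serum were 1.05 for *MIR17HG*, 0.93 for *PVT1* and 0.75 for *SNHG19*, and 0.09 for *SNHG3*.

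The summed level of the 32 hosts ran from 2066 to 2188 CPM with serum and from 1804 to 1990 without. This separation depends on the TMM scaling, since as shares of all counts the ranges overlapped, at 0.201% to 0.208% and 0.190% to 0.205%. Among the hosts, *SNHG16*, *GAS5* and *SNHG29* made up much of the sum. The 8 other lncRNAs together ran from 5356 to 6006 CPM with serum and from 4533 to 5302 without, and their shares of all counts also overlapped, at 0.509% to 0.572% and 0.473% to 0.560%. *MALAT1* dominated that sum.

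The annotated starts of each gene were read from a RefSeq promoter table (GRCh38.p14), since a pyrimidine run at the start is a known feature of hosts. A run was defined as a C followed by at least 4 bases that are each C or T, on the gene's own strand and beginning at the annotated start. A gene with several starts in the table was counted if any of them had the run, and a start can lie inside the gene's whole span, as it does for *SNHG12* and *ZFAS1*. It was found in 7 of the 28 hosts with an entry (25.0%), in 0 of 6 other lncRNAs and in 5.14% of all 27305 genes, and in 15 of 29 protein-coding hosts (51.7%). Windows from 10 bases before to 20 bases from the start are shown for the 6 tested hosts with a run at the start, then for 4 called hosts without it. Capitals mark a run at the start or, in the second set, the longest run that begins within 10 bases of it.
*ZFAS1*: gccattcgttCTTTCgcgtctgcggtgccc
*SNHG12*: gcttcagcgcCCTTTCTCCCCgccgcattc
*SNHG5*: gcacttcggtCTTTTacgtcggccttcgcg
*SNHG32*: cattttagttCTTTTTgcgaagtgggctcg
*SNHG19*: ccgcccctgtCTTTTCggggtcgagtccga
*SNHG4*: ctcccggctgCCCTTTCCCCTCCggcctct
*SNHG1*: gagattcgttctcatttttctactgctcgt
*SNHG16*: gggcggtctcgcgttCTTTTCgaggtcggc
*SNHG17*: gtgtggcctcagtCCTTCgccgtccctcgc
*EPB41L4A-AS1*: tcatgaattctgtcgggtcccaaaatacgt
The windows lie at chr20:49278632-49278661, chr1:28581854-28581883 (minus strand), chr6:85678714-85678743 (minus), chr6:31834906-31834935, chr16:2155339-2155368 (minus), chr5:139274091-139274120, chr11:62855866-62855895 (minus), chr17:76557754-76557783, chr20:38435309-38435338 (minus) and chr5:112160516-112160545, in the order shown. A run beginning within 10 bases of the start was found in 17 of 28 hosts (60.7%) and 38.4% of all genes. *SNHG6*, *SNHG15*, *SNHG9*, *SNHG25*, *NEAT1* and *PVT1* had no entry.

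Of the 6 tested hosts with a run at the start, *SNHG12* fell, and the other 5 lay between -0.09 and 0.22 on the log2 scale without a call. Their median log2 fold change was 0.01, and that of the 16 tested hosts with an entry and no run at the start was -0.04, with 4 called. The log2 fold changes of hosts with and without a run at the start overlapped.

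snoRNA genes inside a host on its strand could be matched for 100 genes, 72 of them in *SNHG14*. None was matched in *SNHG1*, *SNHG15*, *GAS5*, *SNHG29* or *SNHG5*, although the RefSeq spans of *SNHG1* and *GAS5* hold 9 and 11 snoRNA genes. The values below therefore do not cover the snoRNAs of these hosts. Outside *SNHG14*, 19 of 28 had at most 5 counts in any library, and 9 had enough counts for the test. The highest were SNORA73B in *SNHG3*, at 196 ± 56.5 CPM with serum and 169 ± 62.0 without, SNORA71A in *SNHG17* (7.90 ± 5.83 and 6.94 ± 4.02) and SNORA71D, also in *SNHG17* (6.53 ± 4.72 and 5.21 ± 3.40). None of the 9 was called by edgeR without the block, by DESeq2 or by limma-voom, 0 had an unadjusted p under 0.05 in edgeR, and their median log2 fold change was -0.37. With the block, SNORA71B in *SNHG17* (-0.71, edgeR's adjusted p = 0.0287) and SNORA74A in *SNHG4* (-0.69, 0.0365) were called lower. SNORA71 and SNORA74 genes are near-identical copies, and reads that fit several copies were not counted, so these values are uncertain.

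Genes that work with the hosts were read from lists. Over all tested genes, 14.0% fell and 11.1% rose without the block, and 22.4% were lower and 23.2% higher with it, which is the background for the counts that follow. Of 16 proteins of snoRNA-protein particles and their assembly, 11 fell and all 16 values were below 0, with a median log2 fold change of -0.41. *SNU13*, a core box C/D protein, was at 155 ± 2.85 CPM with serum and 113 ± 6.25 without (-0.46 on the log2 scale, edgeR's adjusted p = 0.00174). *NOP56*, another core box C/D protein and itself a snoRNA host, was at 347 ± 26.3 and 237 ± 16.8 CPM (-0.55, 0.00192). Of 36 protein-coding snoRNA hosts, 11 fell and 1 rose (median -0.15), led by *HSPA8*, a constitutive chaperone, which was at 4796 ± 396 CPM with serum and 2336 ± 347 without (-1.04, edgeR's adjusted p = 9.45e-04). The 19 ribosomal protein genes in that list gave 2 of its falls and its 1 rise.

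Of 14 genes of nonsense-mediated decay and the exon junction complex, 5 fell and 1 rose (median -0.20), beside 14.0% and 11.1% of all genes. *MAGOH*, an exon junction protein, changed by -0.49 on the log2 scale (edgeR's adjusted p = 0.00496). Of 12 paraspeckle proteins, 7 fell and all 12 values were below 0 (median -0.31). *RBM14* was at 140 ± 14.1 CPM with serum and 80.5 ± 3.44 without (-0.80, edgeR's adjusted p = 8.46e-04). With the block, which called 45.7% of all genes, all 12 were called lower, and the counts for the other lists were 13 lower of 16 for the particle proteins, 17 lower and 3 higher of 36 for protein-coding hosts, and 8 lower and 1 higher of 14 for decay genes. Among all 2450 tested lncRNA genes, 204 rose and 44 fell without the block (median 0.21).

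**Figure D5:**
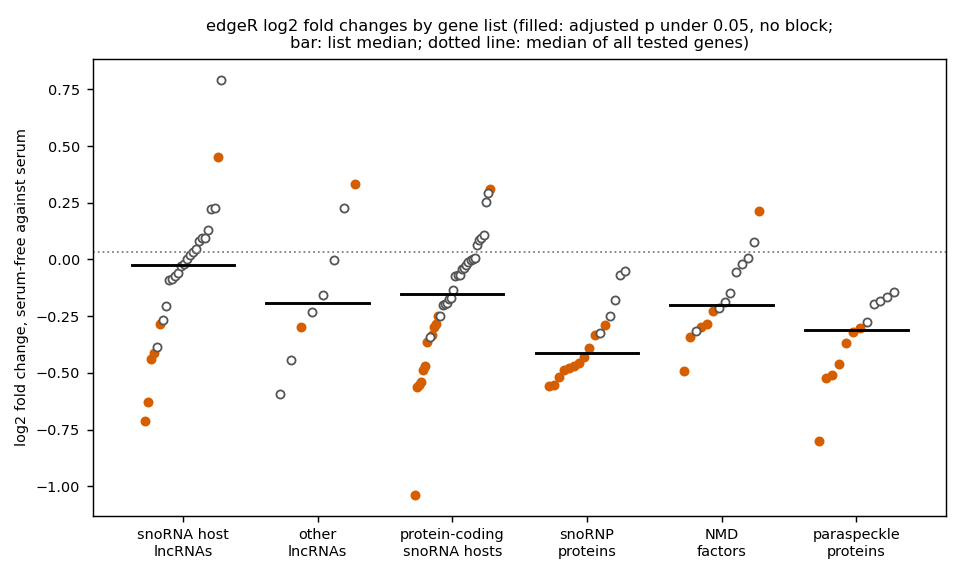
edgeR log2 fold changes of each tested gene in 6 lists, filled where the adjusted p was under 0.05 without a block, with list medians as bars and the median of all tested genes as a dotted line. The host lncRNAs are centred near 0 with a tail of 5 falls, and all 16 particle proteins and all 12 paraspeckle proteins lie below 0.

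The strand setting behind the counts is not given in the sources used here, so members that overlap another gene are uncertain. This holds for 23 of the 40 members, 20 of them with a gene on the other strand. Beside *ZFAS1*, *ZNFX1* on the other strand was called lower (-0.22 on the log2 scale, edgeR's adjusted p = 0.0308), and so were *UBE3A* beside *SNHG14* (-0.44, 0.0235) and *RCC1*, which overlaps *SNHG3* on the same strand (-0.44, 0.00221). *TRNAU1AP*, opposite *SNHG12*, was not called (-0.12, 0.318). The part of these neighbours in the values of the members was not tested.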

How the data were processed

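Counts per gene were analysed for 8 A375 libraries. The authors deposited raw read counts as whole numbers per gene on GRCh38, and the submitters' processing notes name cutadapt, TopHat2 2.0.11 and HTSeq. The annotation release and strand setting are not given in the sources used here. Members and lists were chosen with earlier results of these data known. Gene symbols were matched by identifier for 55604 of 58051 genes. Lengths, GC content and neighbours were read from GENCODE coordinates on GRCh37, which is not the build of the counts, while positions and sequences are from RefSeq tables of GRCh38.p14.

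After filterByExpr and TMM scaling, all 17671 remaining genes were tested with edgeR 4.0.16 (R 4.3.3; robust glmQLFit and glmQLFTest), serum-free against serum, at a Benjamini-Hochberg adjusted p under 0.05. CPM and RPKM used TMM-scaled library sizes, and log2 CPM a prior count of 2. The lines pair the libraries: deviations from condition means correlated at 0.40, 0.59, 0.46 and 0.60 within WT1 to WT4 and at most 0.13 between lines. Nothing in the labels says that lines were repeated, so p-values measure the spread between these 4 lines.

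Values per library are given for the 8 other lncRNAs, the 8 hosts with the highest mean CPM, and further called hosts. For lists, the 2 genes with the smallest p are named, except some that are not reported here; overlap partners, *SNHG11*, SNORA71B and SNORA74A were chosen after their values were seen. Alternatives were the replicate block, the block with a GC offset, DESeq2 1.42.0, limma-voom (limma 3.58.1), RLE and upper-quartile scaling, TMM from protein-coding genes, other count filters, each library or line left out, and, added later, WT1 and WT2 serum libraries left out together and the block with each line left out. The fits were tested on simulated data.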

Additional observations from a re-analysis of the deposited data

Results flagged for a closer look

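In groups of 4 values, a value was noted where its gap to the nearest other value was too large a share of the group's range by Dixon's test. The search covered 102 groups, the serum libraries, the serum-free libraries and the line differences of the 34 tested genes, and 7 were noted. Chance marks about 1 in 20 groups, or 5.1 of 102.

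WT3 stood apart in 4 of them. Without serum, *GAS5* was at 291.1 CPM in WT3 and at 250.2 to 256.5 in the other lines, *SNHG32* at 47.69 CPM against 39.42 to 40.72, and *NORAD* at 733.1 CPM against 910.4 to 940.3. With serum, *SNHG17* was at 117.7 CPM in WT3 and at 129.5 to 131.7 in the others. *SNHG25* was at 0.7415 CPM in WT1 with serum and at 0.2464 to 0.327 in the other lines. For line differences on the log2 scale, *SNHG3* was at -0.05813 in WT1 against 0.01434 to 0.02582, and *CYTOR* at -0.8697 in WT4 against -0.3914 to -0.3157.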

How the results depend on the processing

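Without the block, 6 hosts and 2 other lncRNAs were called. The number of hosts stayed at 6 with limma-voom, RLE and upper-quartile scaling, TMM from protein-coding genes and both other count filters, and was 8 with DESeq2, which called 30.2% of all genes, and 9 with the replicate block. It was 12 with the block and a GC offset, where *SNHG14* changed sign from -0.06 to 0.13 on the log2 scale. Of the other lncRNAs, 3 were called with TMM from protein-coding genes and with at least 10 counts in every library, 2 (*NORAD* and *TUG1*, both higher) with upper-quartile scaling, 4 with DESeq2, 6 with the replicate block and 5 with the block and GC offset. Removing 1 library or line moved the hosts between 3 and 8 and the other lncRNAs between 0 and 4. The 0 arose without the serum library of WT3, the serum-free library of WT1 or WT2, or the line WT1 or WT2, where edgeR gave 2 to 6 unadjusted p-values under 0.05, and the lowest host count without line WT2. With the block, removing lines WT1 to WT4 in turn left 4, 6, 5 and 6 of the other lncRNAs and 7 to 9 hosts. Without both serum libraries with the most reads aligned to several places (WT1 and WT2), 2 hosts and 0 other lncRNAs were called by edgeR (3 at an unadjusted p under 0.05), and over all genes the calls were 1098 against 4434. Both of these alternatives were chosen after seeing the data. The last of them had no block and left WT1 and WT2 without a serum library, so differences between lines enter it. With 1 library or line removed and no block, the calls over all genes ranged from 1589 (without line WT1) to 6128 (without the serum library of WT4), and with all libraries they were 8067 with the block and 8154 with the block and GC offset. The cause was not tested. The replicate block changed no call of a member to no call, and the medians of both groups moved by less than the spread between lines in all fits.

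Each line gave 1 library per condition, so the unblocked p-values rest on 4 libraries a group. Levels in RPKM depend on the gene length used. Which strand a read came from, and how reads of overlapping genes were shared, is not given in the sources used here.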

Other observations

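The 32 snoRNA hosts together held 0.201% to 0.208% of all counts with serum and 0.190% to 0.205% without, and the 8 other lncRNAs 0.509% to 0.572% and 0.473% to 0.560%. snoRNA genes of any kind held 0.17% to 0.30% of counts with serum and 0.10% to 0.21% without. *SNHG14* contained 72 matched snoRNA genes, of which 67 had 0 counts in every library, while its own level was 73.5 ± 28.4 CPM with serum and 70.5 ± 23.5 without (SD, n = 4).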
